A study of Mus musculus with 4 samples.

Results

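The 10 genes described here encode C-type lectin receptors of myeloid cells: Clec7a, Clec4n, Clec4e, Clec4d, Clec12a, Clec9a, Clec1b, Clec5a, Clec10a and Cd209a. They were chosen by name from this receptor family, with earlier results of these data known. They are 10 of 20923 protein-coding genes with a curated RefSeq transcription start site (TSS) in the mouse build mm10. A peak of SMAD4 binding was counted at a gene when its summit, the position of highest signal, lay in the gene body or within 50 kb of a TSS of that gene. By this rule 35 of 16369 peaks in replicate 1 and 38 of 19015 in replicate 2 lay at the 10 genes, a mean of 36.5 ± 2.12 (SD, n = 2). Where peaks of both replicates had 1 bp or more in common they were joined into a shared region, which gave 27 shared regions at the members out of 10964 in all.

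The cells were alveolar macrophages (AMs), which reside on the airway side of the lung and clear inhaled particles and surfactant, washed out of the lungs of 9-wk-old wild-type C57BL/6J mice and purified by flow cytometry. SMAD4, the common partner of the receptor-activated SMADs that act downstream of TGFβ receptors, was profiled by HT-ChIPmentation, in which chromatin is immunoprecipitated and a transposase adds sequencing adapters on the beads. The labels list 2 SMAD4 libraries, precipitated with a mix of 2 antibodies to SMAD4, and 2 input libraries made without them. All libraries share genotype and tissue, no condition was compared, and no source states that the replicates came from separate animals, so that the spread between them may be technical and no test was made.

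C-type lectin receptors bind sugars, lipids or proteins on microbes and dying cells through a folded carbohydrate-recognition domain. Activating members signal through the kinase Syk, either by a tyrosine motif in their own tail or by the adaptors FcRγ and DAP12, and then through Card9, Bcl10 and Malt1 to NF-κB. Inhibitory members carry a motif that recruits the phosphatases SHP-1 and SHP-2, and endocytic members mainly take up glycosylated ligands. Most genes of the family lie side by side in clusters, which for the present rule means that neighbouring genes share their windows.

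Of the 10 genes, 8 lay on chromosome 6 in 3 places. Clec5a stood alone, Clec4n, Clec4d and Clec4e spanned 60.0 kb, and Clec12a, Clec1b, Clec9a and Clec7a spanned 122.5 kb. Clec10a lay on chromosome 11 and Cd209a on chromosome 8. The sequences below are from member promoters that held a shared region and from the strongest region of each place, so that the letters under the SMAD4 signal can be seen. For the promoters of Clec12a, Clec4e and Clec4d, each of which held a shared region, the 250 bases before the TSS are given on the strand of the gene (RefSeq, GRCm38.p6).
Clec12a promoter, chr6:129349994-129350243, plus strand: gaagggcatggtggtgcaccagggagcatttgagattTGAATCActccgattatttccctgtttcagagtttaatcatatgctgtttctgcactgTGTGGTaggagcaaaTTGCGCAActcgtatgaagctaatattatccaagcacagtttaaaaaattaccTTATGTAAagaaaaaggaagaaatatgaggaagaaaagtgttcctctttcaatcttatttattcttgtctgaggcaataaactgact
Clec4e promoter, chr6:123289872-123290121, minus strand: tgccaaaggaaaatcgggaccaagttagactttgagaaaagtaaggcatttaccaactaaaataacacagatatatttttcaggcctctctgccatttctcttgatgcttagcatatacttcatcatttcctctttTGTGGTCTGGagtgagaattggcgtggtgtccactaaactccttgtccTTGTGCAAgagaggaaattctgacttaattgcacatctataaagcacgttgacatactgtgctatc
Clec4d promoter, chr6:123261857-123262106, plus strand: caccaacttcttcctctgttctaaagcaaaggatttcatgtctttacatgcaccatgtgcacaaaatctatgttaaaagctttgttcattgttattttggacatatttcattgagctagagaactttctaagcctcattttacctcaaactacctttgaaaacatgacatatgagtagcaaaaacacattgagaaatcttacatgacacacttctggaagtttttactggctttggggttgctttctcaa
For the strongest shared region of each place, 100 bp on each side of the mean of the replicates' summits are given. The strand is the plus strand of GRCm38.p6. At Clec5a the region lies in a 3′ untranslated region and 30 bases are given. Upstream of Clec4n the summits lay 264 bp apart, and the printed bases lie between them and hold neither.
Clec7a intron 1, chr6:129471477-129471677: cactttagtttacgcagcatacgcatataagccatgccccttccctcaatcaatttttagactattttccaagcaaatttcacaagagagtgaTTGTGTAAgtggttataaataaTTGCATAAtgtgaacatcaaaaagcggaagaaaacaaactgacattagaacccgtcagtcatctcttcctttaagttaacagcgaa
Upstream of Clec4n, chr6:123227708-123227908: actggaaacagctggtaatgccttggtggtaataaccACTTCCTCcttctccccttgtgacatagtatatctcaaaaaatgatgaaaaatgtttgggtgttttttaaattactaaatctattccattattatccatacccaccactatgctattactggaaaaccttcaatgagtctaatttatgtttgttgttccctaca
Clec5a last exon, chr6:40576553-40576582: aatgaaagttcccctttctcaaaaaggacc
Region in the Clec10a window, chr11:70198304-70198504: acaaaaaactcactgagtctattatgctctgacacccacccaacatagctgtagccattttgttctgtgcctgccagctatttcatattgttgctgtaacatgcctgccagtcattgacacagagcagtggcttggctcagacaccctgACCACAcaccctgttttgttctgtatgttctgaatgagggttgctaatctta
Region in the Cd209a window, chr8:3711781-3711981: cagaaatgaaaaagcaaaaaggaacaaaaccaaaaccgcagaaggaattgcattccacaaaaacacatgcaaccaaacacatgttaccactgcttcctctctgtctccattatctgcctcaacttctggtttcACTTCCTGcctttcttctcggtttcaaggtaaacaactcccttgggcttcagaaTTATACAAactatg
The strongest regions nearest to Clec5a and to Clec9a are added in the same way, a choice made after their values were seen.
Upstream of Clec5a, chr6:40588451-40588651: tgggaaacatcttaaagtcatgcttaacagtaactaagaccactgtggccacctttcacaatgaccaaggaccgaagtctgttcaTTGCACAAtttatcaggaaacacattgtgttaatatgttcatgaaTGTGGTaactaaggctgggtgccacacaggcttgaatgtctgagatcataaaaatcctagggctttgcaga
Clec1b intron, nearest TSS Clec9a, chr6:129403422-129403622: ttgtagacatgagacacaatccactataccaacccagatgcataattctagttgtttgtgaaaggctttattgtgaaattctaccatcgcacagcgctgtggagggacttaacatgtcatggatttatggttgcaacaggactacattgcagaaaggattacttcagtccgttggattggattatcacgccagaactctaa
Capitals mark matches to the short strings that are described with the string search at the end.

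All 10 genes had a peak in each replicate, and all 10 had a shared region under the rule. Over all protein-coding genes, 46.6% had a peak of replicate 1, 53.4% a peak of replicate 2 and 39.1% a shared region by the same rule. Because the members were chosen with earlier results known, these shares and those below are descriptions only. The members' count is not a count of separate events, since 15 of the 27 regions fell in the windows of more than 1 member and some in those of 3. When each region was given to the gene with the nearest TSS, 17 of the 27 belonged to 7 members, compared with 21.5% of protein-coding genes that were nearest to any shared region. Clec1b, Clec10a and Cd209a were nearest to none. Clec4d had 4 such regions, Clec12a and Clec9a had 3, Clec7a, Clec4n and Clec5a had 2 and Clec4e had 1. Thus 3 members had 3 or more, which 4.84% of protein-coding genes did. A shared region lay in the promoter (from 1 kb before to 100 bp after a TSS) of 4 members, Clec12a, Clec4e, Clec4d and Clec4n, and in that of 2.92% of protein-coding genes.

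**Figure D1:**
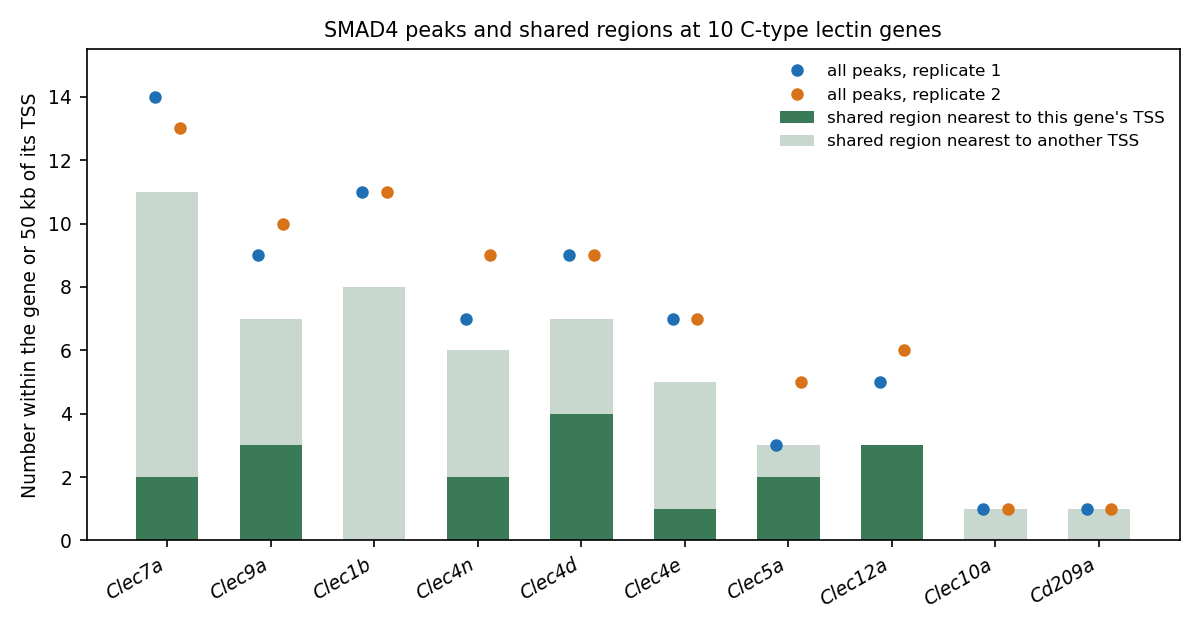
Bars show the number of shared regions in each gene or within 50 kb of its TSS, divided by whether the gene's own TSS or another is the nearest. Dots show all peaks of each replicate under the same rule. Clec7a had the most peaks (14 and 13) but 2 regions of its own, Clec4d had 4 of its own, and the single region of Clec10a and of Cd209a was nearest to another gene.

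Clec7a encodes Dectin-1, the receptor for fungal β-glucan, which carries its own tyrosine motif. The gene lies on the minus strand of chromosome 6 (129461591 to 129472785). Its intron 1 held the strongest of all 27 regions by the smaller of its 2 folds (129471209 to 129472050), 1202 bp downstream of the TSS. Fold enrichment, here the fragments at the summit plus 1 divided by the number that the control level predicts plus 1, was 21.8 in replicate 1 and 31.1 in replicate 2, with 66 and 68 fragments stacked at the summit. The region ranked 315 of 10964 by the smaller fold, and its summits lay 33 bp apart in the replicates. A second region lay 1908 bp upstream of the TSS (129474450 to 129475157), with folds of 9.43 and 9.48 on 28 and 20 fragments. Both replicates thus had signal on either side of the Clec7a TSS, higher in the intron than upstream.

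The window of Clec7a reached into neighbouring genes, and 9 of its 11 shared regions were nearest to another TSS. Olr1, which encodes the oxidized LDL receptor LOX-1, had 4 of these, 3 in its intron 1 and 1 in its promoter. The Olr1 promoter region lay 146 bp upstream of the TSS and had folds of 10.4 and 14.4. Tmem52b, a gene of a transmembrane protein, had a region in intron 2 with folds of 18.9 and 23.9 on 57 and 52 fragments, which ranked 495. Clec1a, which encodes the lectin-like receptor CLEC-1, had 2 in its introns with smaller folds of 8.45 and 9.25.

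Clec9a encodes DNGR-1, a receptor for actin filaments of dead cells that is known from cross-presenting dendritic cells. Clec1b encodes CLEC-2, the podoplanin receptor best known from platelets. Both carry their own tyrosine motif and they lie next to each other on the plus strand. No shared region lay in the Clec9a gene body. Among the regions in either gene or nearest to its TSS, the strongest by the smaller fold lay in an intron of Clec1b (129403157 to 129403880), 6225 bp downstream of the Clec1b TSS and 5340 bp upstream of the Clec9a TSS, so that the nearest-TSS rule gave it to Clec9a. Its folds were 20.5 and 18.8, with 62 and 44 fragments. It was the only region of the 27 with a lower fold in replicate 2, and its summits lay 9 bp apart. The 2 other regions given to Clec9a lay 17828 bp and 18544 bp downstream of its TSS, beyond its 3′ end and in the last exon of Clec1a or at its end. Their folds were 4.77 and 5.86 for the weaker and 11.4 and 14.4 for the stronger.

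At Clec1b itself, no peak near the TSS was called in both replicates. Replicate 2 had a peak in the promoter, 187 bp upstream of the TSS, with a fold of 4.61 on 10 fragments. Within the gene, replicate 1 had a peak 3363 bp downstream of the TSS (fold 3.58, 10 fragments) and replicate 2 a peak at 3669 bp (fold 4.51, 9 fragments), and these did not overlap. By fold they ranked above 13.2%, 2.4% and 6.6% of the peaks in their own lists, and whether they mark the same site cannot be read at this depth.

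Clec12a encodes MICL, an inhibitory receptor for uric acid crystals with a motif that recruits phosphatases. Its promoter held the second strongest region by the smaller fold that was nearest to a member, or rank 425 of all (129349650 to 129350707). Folds were 19.8 and 35.2 on 60 and 77 fragments, with summits 5 bp apart and a mean of 87 bp before the TSS. The gene body held 2 weaker regions. The one in intron 4 had folds of 4.23 and 6.77 (12 and 14 fragments), and the one in intron 5 had 4.88 and 7.22 (14 and 15 fragments). In both replicates the fold at the Clec12a TSS was above that of either intron region.

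**Figure D2:**
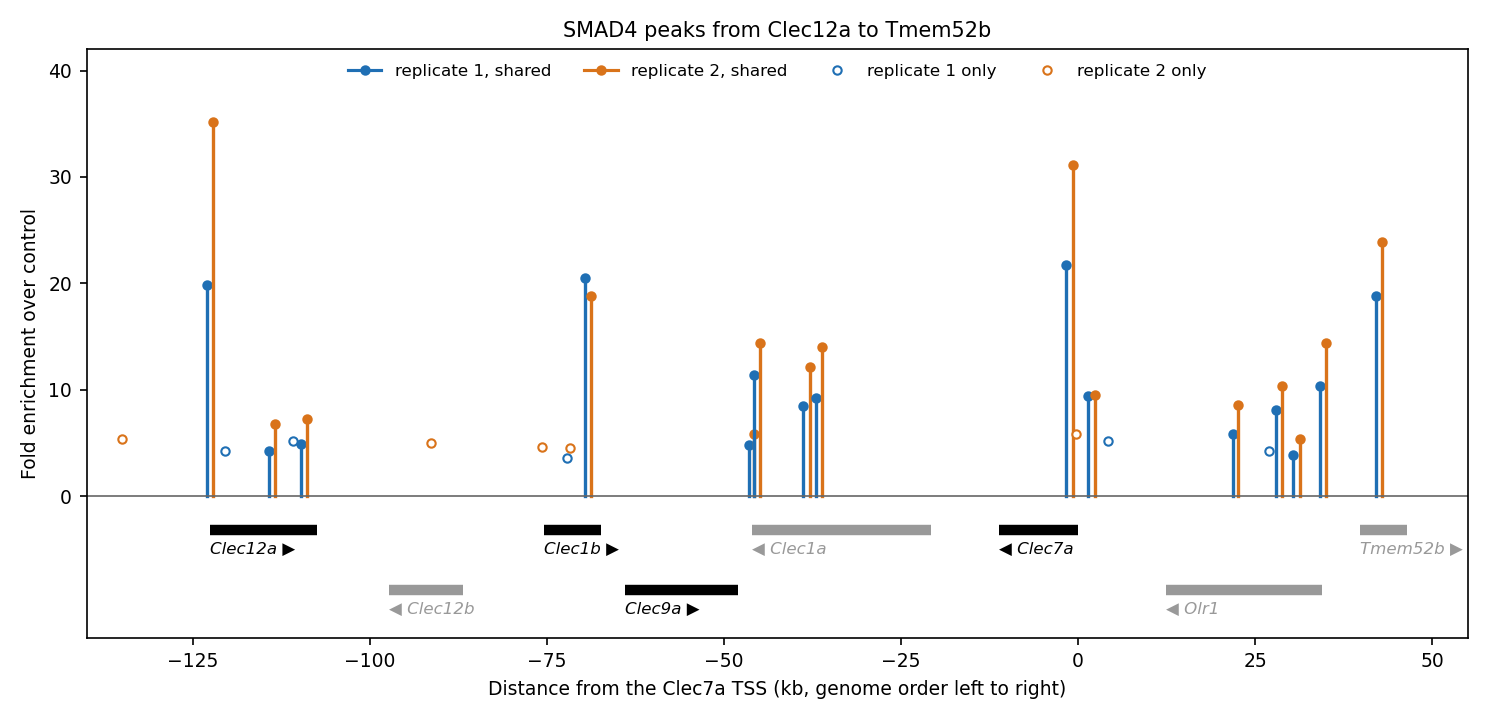
SMAD4 peaks from Clec12a to Tmem52b on chromosome 6. Height is fold enrichment over control, filled symbols are the strongest peak of each replicate in a shared region, drawn slightly apart, and open symbols are peaks of 1 replicate. Bars mark gene bodies, black for members, with arrows in the direction of transcription. Tall pairs stand at the Clec12a promoter (19.8 and 35.2), in the Clec1b intron (20.5 and 18.8), in Clec7a intron 1 (21.8 and 31.1) and in Tmem52b intron 2 (18.9 and 23.9).

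Clec4n, Clec4d and Clec4e encode Dectin-2, MCL and Mincle, which signal through FcRγ. Dectin-2 binds fungal mannans, and MCL and Mincle bind the mycobacterial glycolipid cord factor. All 7 shared regions of this cluster were nearest to 1 of these genes. The strongest lay 2035 bp upstream of the Clec4n TSS (123227474 to 123228308), with folds of 13.0 and 18.0 and 39 fragments in each replicate, and ranked 1358. Its summits lay 264 bp apart, the widest gap among the 27, beside a median gap of 33 bp at the members and of 49 bp over all shared regions. The Clec4n promoter region was the weakest of the 27 by the smaller fold (3.86 and 6.32, with 21 and 13 fragments). In replicate 1 the control level there was 2.26 times its genome-wide background, and in replicate 2 it was at background.

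The Clec4d TSS was the nearest to 4 shared regions, more than for any other member. From upstream to downstream, they lay 9239 bp, 1693 bp and 147 bp before the TSS and 3899 bp after it, in intron 2. The distal region had folds of 8.45 and 15.8 on 25 and 34 fragments. The region at 1693 bp had 40 and 39 fragments but folds of 7.19 and 10.6, and the region in intron 2 had 43 and 36 fragments with folds of 8.94 and 11.2. At both of these the control level was raised in both replicates, to 2.26 and 2.28 times the background upstream and to 1.88 and 1.89 times in the intron. The promoter region was the weakest, with folds of 6.18 and 6.77 and 18 and 14 fragments. Fragment counts were thus highest next to the promoter and in intron 2, while the order by fold differed between replicates.

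Clec4e had a single region of its own, in the promoter with the mean summit 90 bp upstream of the TSS (123289598 to 123290234). Folds were 11.7 and 14.9 on 35 and 32 fragments, and the summits lay 18 bp apart. It was the strongest promoter region in this cluster in both replicates.

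Clec5a encodes MDL-1, which couples to DAP12. Its strongest region lay in the last exon, in the 3′ untranslated region (40576068 to 40577005), and had folds of 18.2 and 38.8 on 60 and 85 fragments. The fold of replicate 2 was the highest at any member, and the ratio of the folds, 2.13, was also the highest. This region lies 5180 bp from the TSS of the odorant receptor gene Olfr460, which is the nearest, and was not counted as a region of Clec5a by the nearest-TSS rule. The 2 regions nearest to Clec5a lay upstream of it. The region at 2746 bp had folds of 14.9 and 18.0 on 49 and 39 fragments, and the region at 9211 bp had 9.75 and 9.93 on 29 and 21 fragments. At both ends of the gene, then, replicates located the same regions, with no shared region at the TSS.

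**Figure D3:**
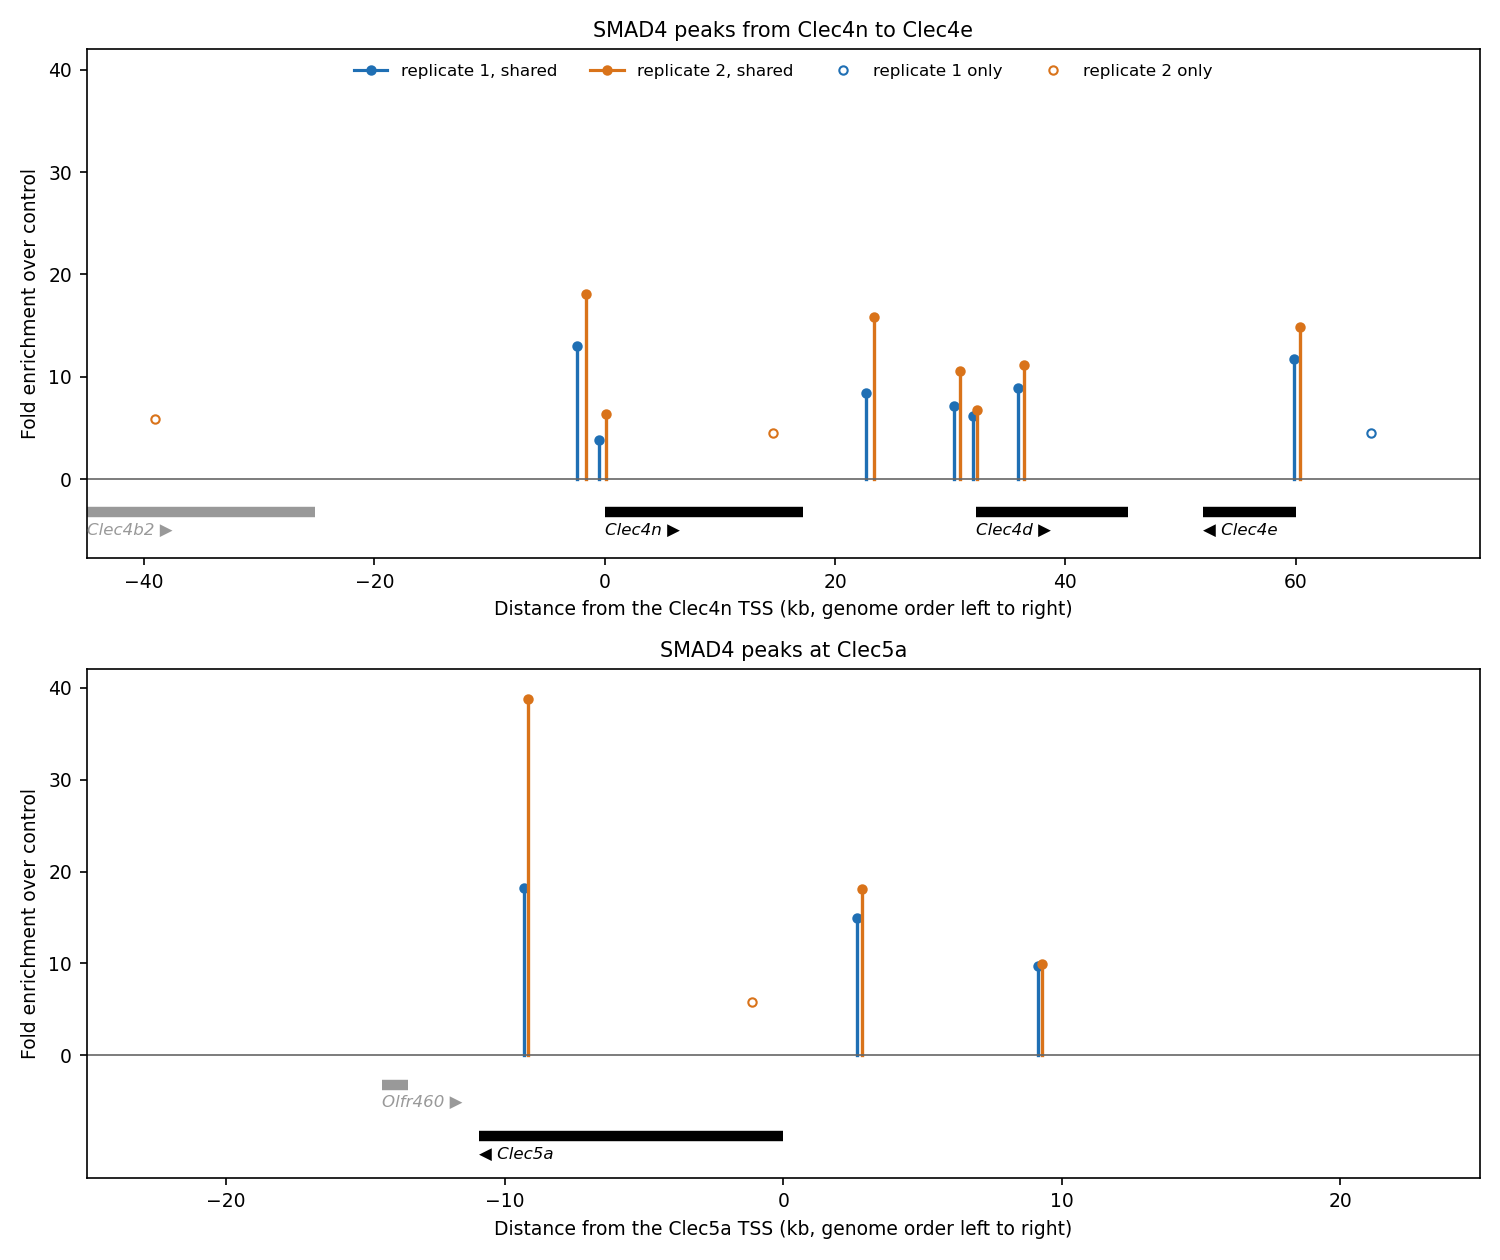
SMAD4 peaks at Clec4n, Clec4d and Clec4e (top) and at Clec5a (bottom), drawn as fold enrichment over control by distance from a TSS. Filled symbols are the strongest peak of each replicate in a shared region, drawn slightly apart, open symbols are peaks of 1 replicate, and bars mark gene bodies. In the cluster the tallest pair lies upstream of Clec4n (13.0 and 18.0), and at Clec5a it lies in the last exon (18.2 and 38.8).

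Clec10a and Cd209a, the members outside chromosome 6, had the fewest shared regions. Both are endocytic receptors, and whether receptor type bears on the count was not tested. Clec10a encodes MGL1, which binds galactose-type sugars, and Cd209a encodes a mouse homolog of DC-SIGN, which binds mannose and fucose. Each had 1 peak in each replicate under the rule, and the peaks overlapped. The region in the Clec10a window (chromosome 11, 70198166 to 70198782) lay 31781 bp from its TSS and 15506 bp upstream of Slc16a11, a monocarboxylate transporter gene, with folds of 16.6 and 25.7 on 50 and 56 fragments. The region in the Cd209a window (chromosome 8, 3711778 to 3712081) lay 37103 bp from its TSS and 8770 bp downstream of the TSS of Clec4g, which encodes the sinusoidal lectin LSECtin, with folds of 6.18 and 9.02 on 18 and 19 fragments. Neither gene had a peak in its body or promoter in either replicate.

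Peaks with no partner in the other replicate were few and weak. In replicate 1, 29 of 35 peaks had a partner (82.9%), and in replicate 2, 30 of 38 (78.9%), a mean of 80.9% ± 2.76 (SD, n = 2). Over all peaks the shares were 69.4% and 59.2%. The 6 unpartnered peaks of replicate 1 had folds of 3.58 to 5.20 on 10 to 15 fragments, and the 8 of replicate 2 had folds of 4.51 to 5.87 on 9 to 12. They included a peak of replicate 2 in Clec7a intron 1, 247 bp downstream of the TSS, one in intron 2 of Clec5a and one in intron 4 of Clec4n. Replicate 1 alone had 2 peaks in introns of Clec12a and 1 lying 6524 bp upstream of Clec4e.

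The rule did not use peak strength, so the members' regions were set beside all shared regions. The median fold at the members was 9.25 in replicate 1 and 12.1 in replicate 2, and over all shared regions 6.83 and 9.48. By the smaller fold the members ranged from 3.86 to 21.8 with a median of 9.25, beside 6.50 over all. Of the 27, 19 were in the upper 50% of all shared regions, 7 in the upper 10%, 4 in the upper 5% and none in the upper 1%. The 4 were those in Clec7a intron 1, at the Clec12a promoter, in the Clec1b intron and in Tmem52b intron 2. The 27 regions were also wider, with a median of 686 bp beside 440 bp over all shared regions. Folds were higher in replicate 2 in 26 of the 27 regions and in 87.2% of all, with a median ratio of 1.39 in both sets. The fragments at the summit did not follow this: they were more in replicate 2 at 10 regions, fewer at 13 and equal at the rest. The background control level was 2.08 fragments in replicate 1 and 1.22 in replicate 2. Across the 27 regions, which share libraries and in part windows, the folds of the replicates had a Spearman rho of 0.935, and over all 10964 shared regions the rho was 0.782, both given as descriptions. These sets differ in size and in gene density, and no test of the difference was made.

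**Figure D4:**
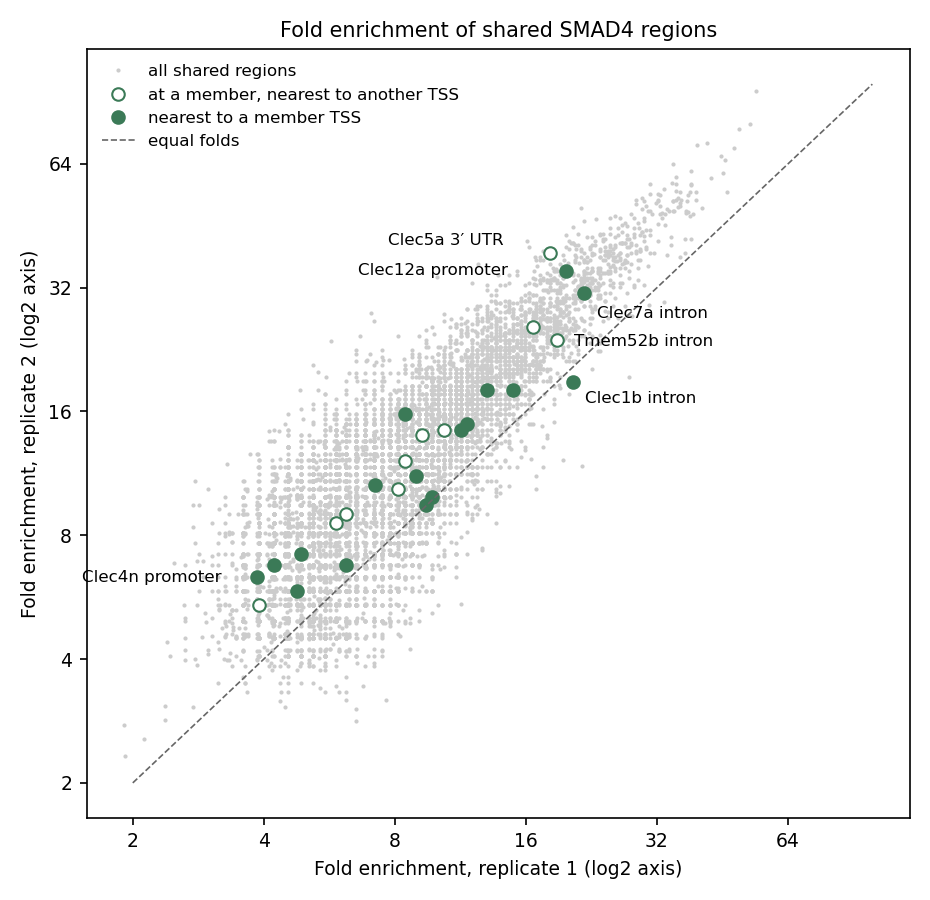
Fold enrichment of each shared region in replicate 1 and replicate 2, on log2 axes. Grey dots are all 10964 shared regions, filled circles the 17 nearest to a member TSS and open circles the 10 at a member but nearest to another TSS. The dashed line marks equal folds, and all 27 regions but the Clec1b intron region (20.5 and 18.8) lie above it.

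By position, 11 of the 27 regions were intronic, 8 intergenic, 5 in promoters (those of 4 members and of Olr1), 2 in exons and 1 at the end of a gene. Over all shared regions 49.3% were intronic, 40.5% intergenic, 6.42% in promoters, 2.49% in exons and 1.3% at gene ends. The rule selects for closeness to a TSS, and nothing is read from the difference. The control level exceeded its background at 7 regions in replicate 1 and 5 in replicate 2, and at 18.2% and 17.3% of all. The GC content within 100 bp of the summit had a median of 41.3%, with 43.8% over all shared regions.

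The windows of 100 bp each side of the mean summit were searched on both strands for 12 short strings. These stand for the cores of known motifs, and distances below are from this mean. Upstream of Clec4n and 9239 bp upstream of Clec4d, where the summits lay 264 bp and 202 bp apart, the window held neither. The C/EBP string was TTNNNNAA whose inner 4 bases alternate purine and pyrimidine. It occurred in 8 of the 27 regions, and in 23.6% of all shared regions, so that the members' share (29.6%) was close to the background. In Clec7a intron 1 it occurred as TTGTGTAA, centred 3 bp from the summit, and as TTGCATAA, 19 bp from it. At the Clec12a promoter it occurred as TTATGTAA, 4 bp from the summit, and as TTGCGCAA, 49 bp from it. At the Clec4e promoter and upstream of Clec5a the letters on the plus strand were TTGCACAA, 27 bp and 11 bp from the summit. The remaining matches lay at the end of Clec1a (15 bp), in Olr1 intron 1 (44 bp and 14 bp) and in the Cd209a window (91 bp). In the 250 bases before the TSS this string occurs in 4.41% of all promoters of protein-coding genes with a sequence. That share covers promoters with and without a SMAD4 region, and is no background for the summit windows, for which it was 23.6%.

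The PU.1 string GAGGAAGT occurred in 2 regions (8% of all regions), upstream of Clec4n and in intron 1 of Olr1. The SMAD string GTCTGG occurred in 4 (11.2% of all), at the Clec4e promoter, in the last exon of Clec1a and in 2 regions of Olr1, and the SMAD palindrome GTCTAGAC in none (0.465% of all). At the Clec4e promoter the SMAD string overlaps the RUNX string TGTGGT by 2 bases. The RUNX string occurred in 7 regions (26.4% of all), the AP-1 string TGANTCA in 4 (12.3%), both AP-1 matches of Clec4d intron 2 among them, and the nuclear receptor string AGGTCA in 3 (15.4%). STAT (TTCNNNGAA) had 2 regions beside 8.06% of all, ETS (CAGGAAGT) 1 beside 5.62% and IRF (GAAANNGAA) 1 beside 8.66%. The RBPJ string GTGGGAA and the E-box CACGTG had no match in these windows (4.14% and 3.65% of all). A match is a description of the letters, and its absence says only that they are not in these windows.

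Related genes were counted by the same rule. Of 37 other C-type lectin genes, 24 had a shared region under the rule, 15 were nearest to one and 6 had one in the promoter. Of 21 genes of the adaptors and other signalling proteins of these receptors, 17, 15 and 3 did. Over all protein-coding genes the shares were 39.1%, 21.5% and 2.92%. The first list lies in part in the clusters of the members and shares regions with them. Clec2d, Syk, Cd302 and Lyn were among the 5 genes of both lists with the strongest nearest regions. Clec2d, an NK receptor ligand encoded in the same gene complex as Clec12a, had folds of 24.1 and 41.5 at its strongest region. Syk, on which activating lectins depend, had 5 regions nearest to it, the strongest with 22.4 and 27.1. Cd302, an endocytic lectin, had 18.5 and 23.0, and Lyn, a kinase that phosphorylates tyrosine motifs, had 17.0 and 22.1. The adaptors of the members, named after their values were seen, had lower folds than these genes, which were picked for high folds. Fcer1g (FcRγ) was nearest to 1 region and Tyrobp (DAP12) to 2. Their smaller folds at the strongest were 7.80 and 5.85, beside a median of 6.50 over all shared regions. Further down the pathway, also named after their values were seen, Card9 had no shared region under the rule, and Bcl10 and Malt1 were each nearest to 1.

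Marker genes were also counted, by binding and not by expression, which was not measured. The lists were chosen with earlier results of these data known, and binding near a marker does not show which cells were sorted. Of 11 AM marker genes 10 were nearest to a shared region, and of 12 markers of other lung and blood cells 3 were. Over all protein-coding genes 21.5% were, so the 3 of 12 do not tell whether other cells were present. These 3, named after their values were seen, were Scgb1a1 of club cells, Ncr1 of NK cells and S100a8 of neutrophils and monocytes. The part of other cells in the peaks at the members was not tested.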

How the data were processed

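HT-ChIPmentation reads of AMs were trimmed with cutadapt, aligned to mm10 with Bowtie2 and filtered with SAMtools by the authors, who called peaks with MACS3 in each SMAD4 library separately, at a q-value limit of 0.05. The input libraries entered only through the control level, and their own values were not used here. For each peak the authors deposited a fold ratio, the −log10 of p and of q, the summit's offset, and a score derived from q that was not used. Sequencing totals were not used.

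Fragments at the summit and the control level were solved from the deposited fold and p. All values were whole within 0.02 fragments, and 100% were recovered in simulated peaks. The median peak held 17 fragments in replicate 1 and 14 in replicate 2, and the weakest 9 and 7, so low folds are imprecise.

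Gene models were 45657 curated RefSeq transcripts of GRCm38.p6, the assembly that mm10 names. A shared region's position was the mean of its summits. Promoter sequences matched for 3 of the 4 members with a promoter region. The members, lists and strings were chosen with earlier results of these data known. Named genes were the members, the genes nearest to their regions and the 5 strongest of both lists, of which 1 is not reported here. With 1 condition and 2 libraries there was no test and no adjustment. The alternatives were other windows, overlap rules, thresholds, annotations and string windows, and each replicate alone. Analyses used Python 3.11.15, numpy 2.4.6, pandas 2.3.3, scipy 1.17.1 and matplotlib.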

Additional observations from a re-analysis of the deposited data

How the results depend on the processing

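No paired analysis was possible because the results come from no test and the replicate numbers only name the libraries. The count of members with a shared region stayed at 10 except with windows of 10 kb or 25 kb (8 in each) and with gene bodies alone (5). The share of all protein-coding genes is known for the 50 kb rule only (39.1%). Whether the counts under other rules are high for a gene therefore cannot be read. Gene bodies alone left 6 shared regions, 5 of them nearest to a member, and 10 kb windows left 16 regions, because fewer positions were counted. From each replicate alone, 35 and 38 peaks lay at the members and 23 and 25 were nearest to one, with 10 members in each. Ranked by the mean of the log2 folds, the strongest region was that in the last exon of Clec5a, higher than 97.04% of all regions, in place of Clec7a intron 1 (96.97% by the smaller fold). With 50 bp each side, the PU.1 string had 0 regions (4.56% of all). The other alternatives moved the counts of members, regions and C/EBP and PU.1 strings by no more than 1.5 times. Other strings depended on the window. At 200 bp each side IRF had 8 regions (16.2% of all) and AP-1 7 (19.5%). SMAD had 7 (21.5%), the nuclear receptor string 6 (26.6%), ETS 2 (8.12%) and RBPJ 2 (8.49%). At 50 bp RUNX had 4, AP-1 2 (6.73% of all) and SMAD 2 (5.83%). Over all shared regions the share of each of these strings also rose at 200 bp or fell at 50 bp. The direction of these moves is therefore not particular to the members. Weak peaks rest on about 10 fragments, and whether a peak of 1 replicate was missed in the other was not tested.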
